A study of Homo sapiens with 4 samples.

Results

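The genes described here are CREB3L1 and 9 genes for products of mucous secretory cells: the secreted or membrane-bound proteins PARM1, SLPI, LCN2, PIGR, TFF1, TFF3 and BPIFB1, and the folding factors AGR2 and AGR3. They are 10 of the 50868 genes in the deposited tables, taken by gene name, and all 10 were found and passed the filter on low counts. RNA was sequenced from A549, a line of human lung adenocarcinoma cells, in 4 libraries, 2 labelled control and 2 labelled USP12-overexpressed. The study calls the control cells empty vector cells, and its methods describe tagged human USP12 in pLVX vectors, without saying which construct these libraries used. USP12 is a deubiquitinase, an enzyme that removes ubiquitin from other proteins. Neither the labels nor the methods say whether the replicates were separate cultures or clones, so p-values measure only the spread between these samples, which may be technical. USP12 itself had 15.2 and 34.4 CPM (counts divided by the scaled library total) in control cells against 1745 and 2235 CPM in USP12 cells, as the labels state. The 10 genes were chosen by their lower counts in USP12 cells, with the difference between USP12 and control cells in these same libraries already known. Their fold changes are therefore a description, without a test, and their common direction is not a finding.

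Mucous cells of the airway and gut build mucins and a set of small proteins that are stored and released with them. SPDEF and FOXA3 are known transcription factors of this state. CREB3L1, also called OASIS, is a transcription factor held in the membrane of the endoplasmic reticulum. It is freed by proteolytic cleavage in the Golgi and then acts on genes of the secretory pathway. AGR2 and AGR3 belong to the protein disulfide isomerase family, and AGR2 is needed for mucin folding in the gut. TFF1 and TFF3 are trefoil peptides that are released with mucins and protect the epithelium. SLPI inhibits neutrophil elastase, LCN2 binds bacterial siderophores, BPIFB1 is a secreted lipid-binding protein of the airway, and PIGR carries polymeric immunoglobulins across the epithelium. PARM1 is a mucin-like membrane protein.

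The libraries held between 14280081 and 16305356 counts, and a level of 3 counts, used here as the floor, corresponded to 0.166 to 0.227 CPM. Such floors cover counting error only. The control libraries differed more from each other than the USP12 libraries did. Across the 15222 genes tested, the log2 difference between the control libraries had an SD of 1.32, against 0.62 between the USP12 libraries. The column heading of control replicate 1 also starts with another number than the other 3 headings. A batch and that library cannot be told apart, so for those of the 10 genes with counts in USP12 cells, and where the control library used changes a result on another gene, the value against control replicate 2 alone is also given. A fit with a single control library takes its spread from the USP12 libraries alone. Its counts of genes ignore the spread between control libraries. The A549 markers AKR1B10, AKR1C1, ALDH1A1, ALDH3A1 and NQO1 summed to between 10228 and 10798 CPM in the 4 libraries. The 5 epithelial markers (EPCAM, CDH1 and 3 keratins) summed to 9638 and 5060.3 CPM in control cells and to 4275 and 3976 CPM in USP12 cells. Both USP12 libraries were lower than either control library. The control libraries lay further from each other than control replicate 2 lay from the USP12 libraries. The summed basal cell markers (44.9 and 46.3 CPM, then 10.4 and 20.8 CPM) and ciliated cell markers (63.9 and 38.7, then 22.8 and 30.1) were low and also lower in USP12 cells. Only 1 of the 4 basal and 2 of the 5 ciliated markers had more than 3 counts in every library. The alveolar type II sum (122 and 83.9, then 77.6 and 79.6) was mostly ABCA3. ABCA3 alone had 115.17 and 77.86 CPM, then 76.16 and 77.92 CPM, with overlapping groups. The part of these differences in the results was not tested. Leukocyte markers summed to 46.9 to 79.5 CPM and fibroblast markers to 2.83 to 20.9 CPM, with overlapping groups. SFTPA2, SFTPB, KRT14, CD3E, TYROBP and DCN had no count in any library.

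In all 10 genes, each USP12 library had a lower level than either control library, an order found in 17% of all genes tested. By the criterion of the study (a p of at most 0.05 before adjustment and a log2 fold change no higher than -1), all 10 were lower in USP12 cells, as were 4.41% of all genes tested. All 10 had an unadjusted p under 0.05 (7.59% of all genes) and a log2 fold change below 0 (53.6%). Nothing is read from these counts, since the same contrast chose the genes. AGR3, PIGR, TFF1, TFF3 and BPIFB1 also passed the filter on low counts through the control libraries only. No gene of the table had an adjusted p under 0.05 (0 of 15222, edgeR's quasi-likelihood test with Benjamini-Hochberg adjustment), while 1155 had an unadjusted p under 0.05, and the edgeR exact test called 429 genes at the adjusted threshold. With 2 libraries per group, a two-sided exact permutation test of a single gene cannot give a p below 0.333. The median log2 fold change of the 10 genes was -6.40, against -0.06 for all genes tested. It was -4.67 with AGR3 and TFF3, which had no counts in USP12 cells, set at the bound that the floor allows. In bulk RNA, fewer cells making a transcript and less transcript per cell cannot be told apart.

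**Figure D1:**
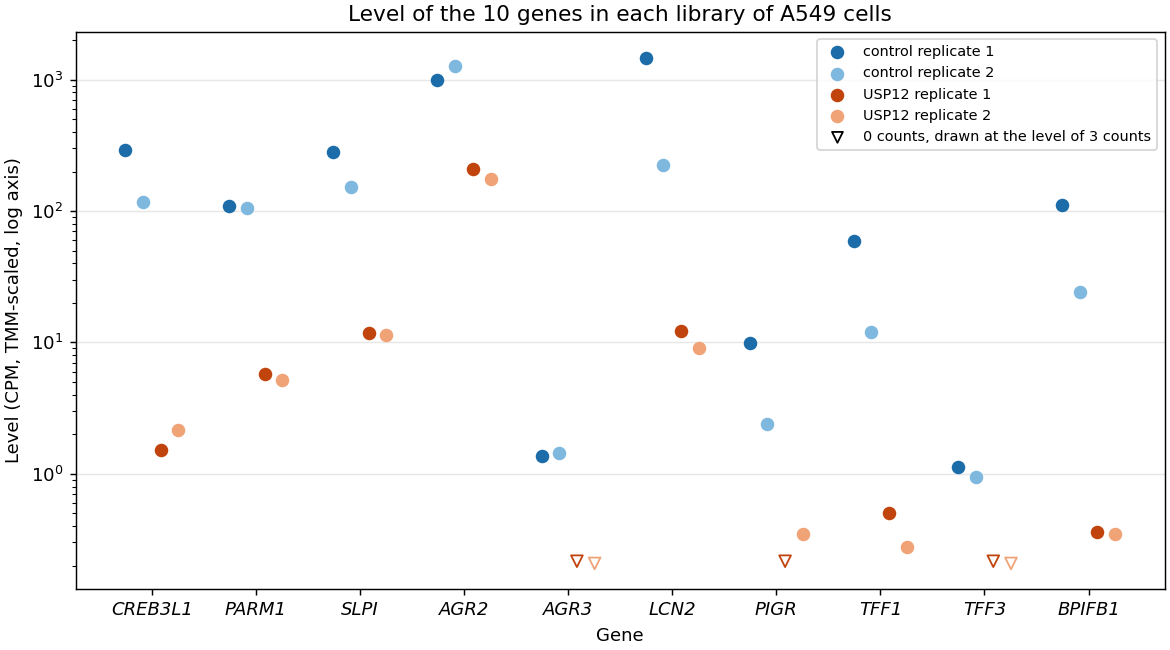
Level of each gene in CPM (scaled by TMM, log axis) in the 4 libraries. Points are single libraries, and open triangles mark 0 counts, drawn at the level of 3 counts. In every gene both USP12 libraries lie below both control libraries, and LCN2, TFF1, PIGR and BPIFB1 are well separated between the control libraries.

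CREB3L1 (ENSG00000157613, chromosome 11 of GRCh38, 46277662 to 46321409, plus strand) had 3850 and 2115 counts in control cells against 21 and 31 in USP12 cells. These are levels of 291, 117, 1.51 and 2.15 CPM. Both USP12 libraries were near 2 CPM, while the control libraries differed 2.49-fold. The log2 fold change was -6.79 (approximate standard error 0.68), and it was -5.99 against control replicate 2 alone and -7.28 against control replicate 1 alone. By mean control CPM, which is not divided by gene length, CREB3L1 ranked 752nd of all genes.

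The other members of its family showed smaller differences, and no test was made between members. CREB3 had 180 and 66.7 CPM in control cells against 58.7 and 61.4 CPM in USP12 cells, so that the USP12 libraries lay close to control replicate 2. Its log2 fold change was -1.04 (SE 0.53, quasi-likelihood test in edgeR, adjusted p = 0.794), and -0.15 against control replicate 2 alone. CREB3L2 had 98.4 and 172 CPM, then 75.9 and 138 CPM, with overlapping groups. CREB3L4 lay between 11.1 and 17.6 CPM in all libraries, and CREB3L3 between 0.485 and 2.50 CPM. The log2 fold changes of CREB3L2, CREB3L3 and CREB3L4 were -0.34 (SE 0.47), -0.53 (SE 0.97) and -0.11 (SE 0.47). Their direction turned with the control library used, with -0.68, 0.45 and 0.26 against control replicate 2 alone and 0.15, -1.10 and -0.38 against control replicate 1 alone. MBTPS1 and MBTPS2, the proteases that cleave CREB3 family proteins in the Golgi, had values of -0.26 (SE 0.38) and -0.44 (SE 0.46) on the same scale. The values were -0.43 and -0.80 against control replicate 2 alone, and -0.04 and 0.07 against control replicate 1 alone. These were described because they are the relatives and the processing enzymes of CREB3L1, and were chosen after their values had been seen.

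The coat that carries cargo out of the endoplasmic reticulum, COPII, contains known targets of the CREB3 family. In the list of 21 genes of the CREB3 family, its proteases and COPII, all 21 were tested and 0 were lower or higher by the criterion, against 4.41% and 2.92% of all genes tested, with 0 at an unadjusted p under 0.05 and 0 at an adjusted p under 0.05. The edgeR exact test and the DESeq2 Wald test also gave 0 genes by the criterion. Without a filter, 2 of the 21 genes were lower, in a fit that called 1173 of all 24800 genes lower. The median log2 fold change was -0.26, and it was -0.39 against control replicate 2 alone and 0.06 against control replicate 1 alone. SEC16A, which organises COPII exit sites, had 229 and 289 CPM in control cells against 147 and 189.8 CPM in USP12 cells. TFG, another exit site protein, had 219 and 211 CPM, then 228 and 218 CPM, a log2 fold change of 0.06 (SE 0.32). SEC24D, a cargo adaptor chosen after its value was seen for the largest difference of the list, had 29.1 and 87.8 CPM in control cells against 24.3 and 28.9 CPM in USP12 cells. Its log2 fold change of -1.14 (SE 0.59) was -0.10 against control replicate 1 alone, so it rested on control replicate 2.

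AGR2 (ENSG00000106541, chromosome 7, 16791811 to 16833433, minus strand) had the smallest fitted difference of the 10 genes. It had 987 and 1270.0 CPM in control cells against 209 and 176 CPM in USP12 cells. The groups were far apart, yet the USP12 cells kept a substantial level. This gave a log2 fold change of -2.55 (SE 0.35), a 5.86-fold lower level, and it was the 293rd lowest of the 15222 genes tested, so that 1.92% of them had a log2 fold change as low as any of the 10. AGR2 had a lower level in control replicate 1 than in control replicate 2, unlike most of the 10 genes. Its log2 fold change was -2.72 against control replicate 2 alone and -2.33 against control replicate 1 alone.

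Its neighbour AGR3 (ENSG00000173467, chromosome 7, 16859412 to 16881987, minus strand) was near the floor. It had 18 and 26 counts in control cells against 0 counts in either USP12 library, thus at least 6.61-fold lower when the mean control CPM was set against the mean floor of 3 counts per USP12 library. AGR3 passed the filter on low counts through the control libraries only. The processed pseudogene RAD17P1, which lies over AGR3 on its strand, had 0 counts in every library.

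The RefSeq promoter table for GRCh38.p14 holds 7 of the 10 genes: CREB3L1, PARM1, AGR2, AGR3, LCN2, PIGR and BPIFB1. The 250 bases before the RefSeq start were searched, since these genes were all lower in USP12 cells. For AGR2 this window is chr7:16805000-16805249, minus strand. RefSeq's start lies inside the GENCODE gene, which also has starts further upstream. The window is printed here because it holds a match to the C/EBP motif and a TATA-like match, both in capitals and written 5′ to 3′.
AGR2: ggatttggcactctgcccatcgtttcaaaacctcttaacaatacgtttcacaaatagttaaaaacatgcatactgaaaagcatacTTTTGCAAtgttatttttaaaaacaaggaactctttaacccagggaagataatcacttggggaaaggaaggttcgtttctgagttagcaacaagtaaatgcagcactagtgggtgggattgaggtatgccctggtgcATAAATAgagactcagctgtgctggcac

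The protein disulfide isomerases, relatives of AGR2 and AGR3, form disulfide bonds in the endoplasmic reticulum. Of 19 listed genes, 17 were tested, 1 was lower by the criterion and 0 were higher, against 4.41% and 2.92% of all genes tested. The median log2 fold change of the 17 genes was -0.27, and 0 had an adjusted p under 0.05. The gene that met the criterion was P4HB, protein disulfide isomerase itself, with 1799 and 1087 CPM in control cells against 717 and 677 CPM in USP12 cells. Its log2 fold change was -1.05 (SE 0.36, quasi-likelihood test in edgeR, adjusted p = 0.521), and -0.64 against control replicate 2 alone. PDIA4 had 566 and 533 CPM, then 424 and 378 CPM, a log2 fold change of -0.45 (SE 0.31). For PDIA3 it was -0.25 (SE 0.32).

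Among the antimicrobial and protease-inhibiting products, LCN2 (ENSG00000148346, chromosome 9, 128149071 to 128153453, plus strand) had the widest difference between the control libraries. It had 1475 CPM in control replicate 1 and 225 CPM in control replicate 2, a 6.55-fold difference, against 12.2 and 9.0 CPM in USP12 cells. Only 630 of the 15222 genes, or 4.14%, differed more between the control libraries. The log2 fold change was -6.32 (SE 1.01), and it was -4.40 against control replicate 2 alone and -7.09 against control replicate 1 alone. The lower control library was still well above both USP12 libraries.

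In the LCN2 promoter, the search found the κB consensus, which NF-κB proteins bind. It also found C/EBP, AP-1-like and TATA-like matches. The AP-1-like pattern, TGANTCA, was loose, with any base allowed at its centre, where this match has an A. As part of this window is transcribed in another GENCODE transcript of LCN2, only the stretches with the κB, AP-1-like and TATA-like matches are shown, each of 30 bases on the plus strand. The first is chr9:128149268-128149297 with the κB match in capitals, at bases -175 to -166 from the start. The second is chr9:128149401-128149430, with the AP-1-like match at its first base and the TATA-like match at its end.
LCN2 κB: cagcactccgGGAATGTCCCtcactctccc
LCN2 AP-1 and TATA: TGAATCAacccaccctagatcccATAAATA

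SLPI (ENSG00000124107, chromosome 20, 45252239 to 45254564, minus strand) had 282 and 154 CPM in control cells against 11.7 and 11.4 CPM in USP12 cells. The USP12 libraries differed by 1 count, 163 against 164. This gave a log2 fold change of -4.24 (SE 0.48), and -3.73 against control replicate 2 alone. PI3, or elafin, is another elastase inhibitor of the same whey acidic protein family and lies within 250 kb of SLPI. PI3 had 135 and 17 counts in control cells against 0 in either USP12 library, thus at least 26.3-fold lower. This limit rested on control replicate 1 and was 4.45-fold against control replicate 2 alone. In the list of the whey acidic protein and lipocalin families, only 6 of 19 genes were tested. PI3, which passed the filter through the control libraries only, and the lipocalin APOD met the criterion of lower expression and 0 genes that of higher expression, against 4.41% and 2.92% of all genes tested. Of the 3 genes with at least 10 counts in every library, 0 were lower. APOD had 11.9 and 9.09 CPM, then 1.87 and 0.623 CPM (log2 fold change -3.06, SE 0.71, quasi-likelihood test in edgeR, adjusted p = 0.302). AMBP, also a lipocalin, had 13.5 and 6.65 CPM, then 11.6 and 11.4 CPM, a log2 fold change of 0.20 (SE 0.53) that was -0.20 against control replicate 1 alone. For the retinol carrier RBP4 it was -1.29 (SE 0.77), and -0.10 against control replicate 2 alone. The median of the 6 genes was -1.38, and -0.43 against control replicate 2 alone. Against control replicate 1 alone it was -1.95, and 6 of 7 genes tested were lower, in a fit that called 13.3% of all genes lower.

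BPIFB1 (ENSG00000125999, chromosome 20, 33273480 to 33309871, plus strand) had 1461 and 435 counts in control cells against 5 counts in each USP12 library. In CPM these were 111 and 24.1, then 0.360 and 0.346. Both USP12 libraries were just above the floor. The log2 fold change was -7.54 (SE 1.00), and -6.06 against control replicate 2 alone. Pooled over the libraries of each group, the level was 172-fold lower, with a 95% exact binomial interval of 93.2 to 359 that covers counting error only.

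The BPIFB1 window, chr20:33282964-33283213 on the plus strand, lies inside the GENCODE gene but overlaps no exon. It is shown because it holds the only match to a FOXA motif outside PARM1, together with an ETS match, both in capitals.
BPIFB1: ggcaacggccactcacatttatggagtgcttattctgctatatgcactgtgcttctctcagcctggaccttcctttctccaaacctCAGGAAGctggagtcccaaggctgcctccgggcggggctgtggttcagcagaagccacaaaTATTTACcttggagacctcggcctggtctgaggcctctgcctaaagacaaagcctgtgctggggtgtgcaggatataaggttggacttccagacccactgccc

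PIGR (ENSG00000162896, chromosome 1, 206928522 to 206946466, minus strand) was a low gene. It had 130 and 43 counts in control cells against 0 and 5 in USP12 cells, or 9.84, 2.38, 0 and 0.346 CPM. The groups did not overlap, but the USP12 value rested on 5 counts of a single library. This gave a log2 fold change of -5.06 (SE 1.36), and -3.70 against control replicate 2 alone. The pooled level was 31.4-fold lower (95% exact binomial interval 13.2 to 97.8).

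The PIGR window, chr1:206946467-206946716 on the minus strand, lies upstream of the gene and overlaps no exon. It is shown as the only window outside BPIFB1 with an ETS match, which is in capitals.
PIGR: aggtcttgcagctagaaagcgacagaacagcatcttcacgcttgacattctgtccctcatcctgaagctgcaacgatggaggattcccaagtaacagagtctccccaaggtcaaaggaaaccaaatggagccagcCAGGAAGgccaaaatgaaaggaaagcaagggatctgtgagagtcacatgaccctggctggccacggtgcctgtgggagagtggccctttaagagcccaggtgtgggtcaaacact

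The trefoil peptides lie together on chromosome 21. TFF1 (ENSG00000160182, 42362282 to 42366535, minus strand) had 776 and 217 counts in control cells against 7 and 4 in USP12 cells. These were 58.7, 12, 0.504 and 0.277 CPM. The control libraries differed 4.88-fold, and the lower of them was far above both USP12 libraries. The log2 fold change was -6.47 (SE 1.03), and -4.92 against control replicate 2 alone. TFF3 (ENSG00000160180, 42311667 to 42315409, minus strand) had 15 and 17 counts in control cells against 0 in both USP12 libraries. It was thus at least 4.90-fold lower. Like AGR3, PIGR, TFF1 and BPIFB1, it passed the filter through the control libraries only. TFF2, between them, had 23 counts in control replicate 1 and 0 in the other 3 libraries and was not tested.

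PARM1 (ENSG00000169116, chromosome 4, 74933095 to 75050115, plus strand) was the most even of the 10 genes between the control libraries. It had 108 and 105 CPM in control cells against 5.76 and 5.19 CPM in USP12 cells. This gave a log2 fold change of -4.28 (SE 0.41), with -4.26 against control replicate 2 alone and -4.28 against control replicate 1 alone. The annotated antisense genes over PARM1 had 0 counts in every library.

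**Figure D2:**
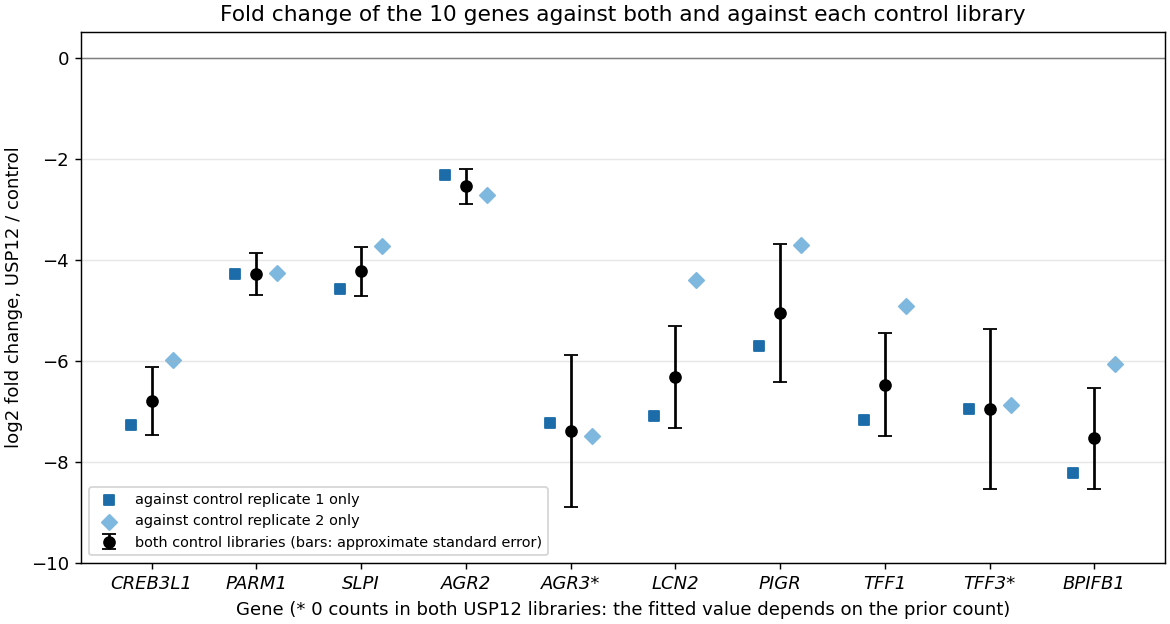
Log2 fold change (USP12 over control) of each gene from the fit with both control libraries (black, bars are approximate standard errors) and with only control replicate 1 or only control replicate 2. LCN2 moved from -7.09 to -4.40 with the control library used, while PARM1 stayed at -4.28 and -4.26.

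The control libraries split the 10 genes. In 8 genes the fold change was larger against control replicate 1 than against control replicate 2, and AGR2 and AGR3 were the exceptions. In the log2 level, the difference of control replicate 1 over replicate 2 ran from -0.36 in AGR2 to 2.71 in LCN2. It was 2.28 in TFF1, 2.19 in BPIFB1 and 1.99 in PIGR, but 0.05 in PARM1. The USP12 libraries were closer. In the 4 genes with over 50 counts in each of them (AGR2, LCN2, SLPI and PARM1), the log2 difference was at most 0.44. Against control replicate 2 alone the median log2 fold change of the 10 genes was -4.66, and against control replicate 1 alone it was -7.03.

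Summed over the 10 genes, the level was 3324 and 1912 CPM in control cells against 241 and 205 CPM in USP12 cells. The makeup of this sum in CPM also differed. CPM is not divided by gene length, so the shares below are of counted fragments and do not rank the genes by level. In control replicate 1, LCN2 made up 44.4% and AGR2 29.7%. In control replicate 2, LCN2 made up 11.8% and AGR2 66.4%. In the USP12 libraries, AGR2 alone made up 86.7% and 86.0%.

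**Figure D3:**
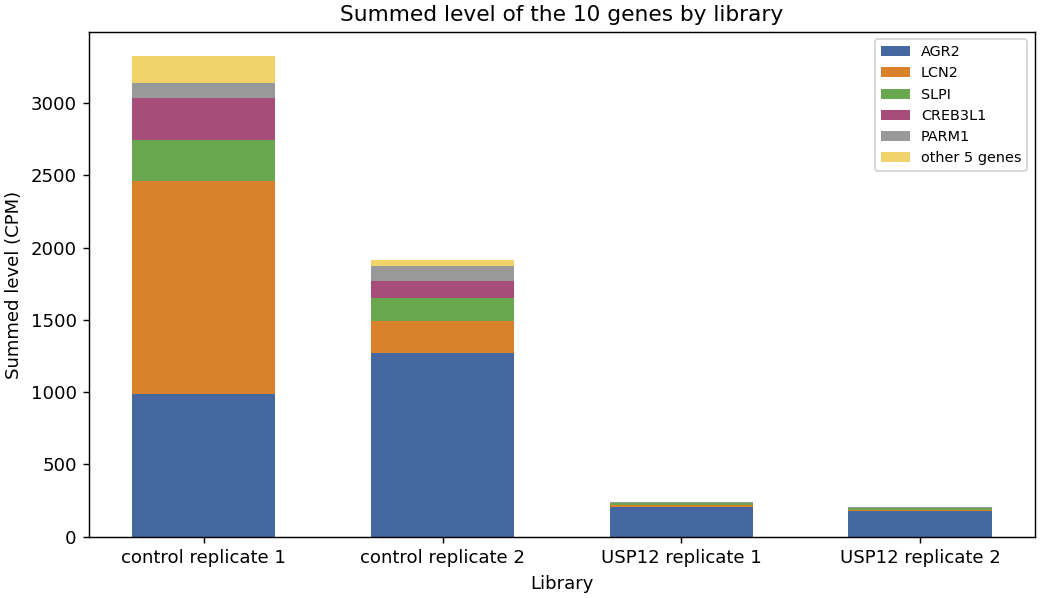
Summed level of the 10 genes in CPM, stacked by gene, in each library. The bars reach 3324 and 1912 CPM in control cells against 241 and 205 CPM in USP12 cells. CPM is not divided by gene length, and AGR2 makes up most of the CPM in USP12 cells.

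Levels of different genes can be compared only per length, as FPKM (CPM divided by the annotated exon length in kilobases). By mean control FPKM, the order was LCN2 (532), AGR2 (408), SLPI (365), TFF1 (71.9), CREB3L1 (50.8), BPIFB1 (22.3), PARM1 (21.2), PIGR (1.40), AGR3 (1.22) and TFF3 (1.13). The first 3 changed places between the control libraries. LCN2 had 924 and 141 FPKM, AGR2 357 and 459, and SLPI 473 and 258, so their order was within the spread of the control libraries. The same held for TFF1 against CREB3L1, for BPIFB1 against PARM1, and among PIGR, AGR3 and TFF3. In USP12 cells AGR2 led with 75.6 and 63.8 FPKM, followed by SLPI with 19.7 and 19.1 and LCN2 with 7.67 and 5.64, and these ranges did not overlap. CREB3L1 was at 0.376 and 0.534 FPKM there.

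**Figure D4:**
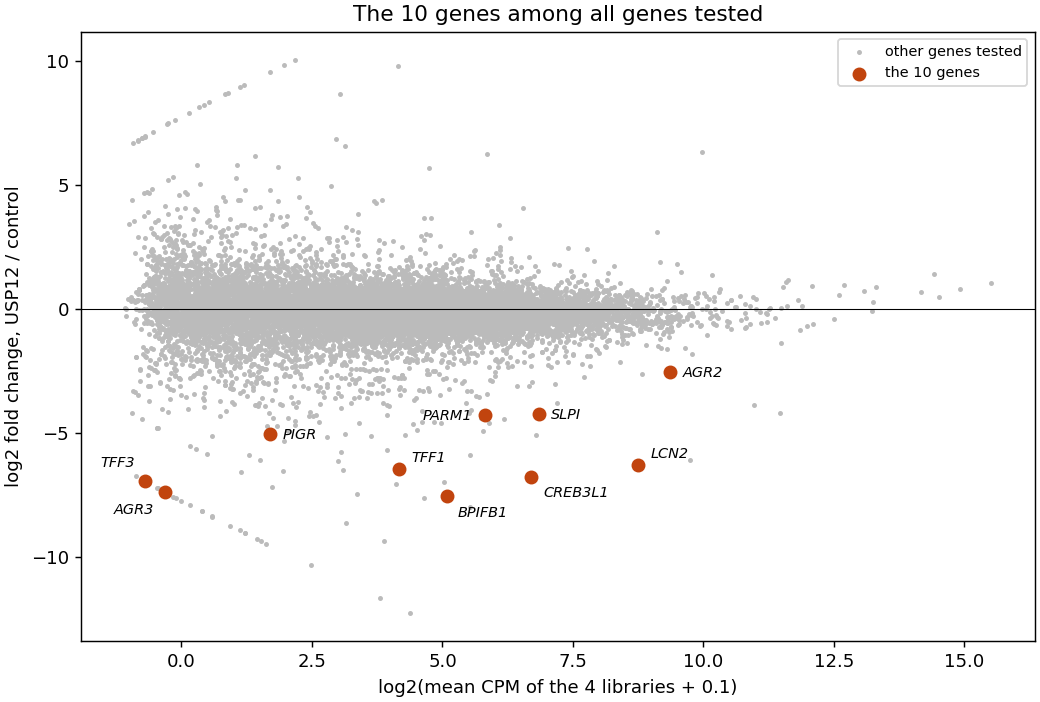
Log2 fold change (USP12 over control) of all 15222 genes tested against log2 of the mean CPM of the 4 libraries plus 0.1, with the 10 genes in colour. They lie between -7.54 (BPIFB1) and -2.55 (AGR2), at mean CPM from near the floor (TFF3, AGR3) to among the highest (AGR2).

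The 3 genes whose pattern over the 4 libraries was nearest to that of CREB3L1 were BPIFB1, CEACAM6 and MGAM2, by the Euclidean distance of centred log2 CPM among 14327 genes with a mean of at least 1 CPM. The distances were 0.74, 0.75 and 0.79. CEACAM6 encodes an adhesion molecule of mucosal epithelium and MGAM2 a relative of the gut enzyme maltase-glucoamylase. MGAM2 had 249 and 290 counts in control cells against 0 and 1 in USP12 cells. Of the other genes described here, TFF1 was the 7th nearest and LCN2 the 10th, while AGR2 was the 183rd. With 4 libraries in 2 groups, such a distance mainly reflects the size of the difference between the groups.

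Other genes of airway secretory cells were lower too. Of 30 listed genes, 13 were tested, and all 13 were lower by the criterion, against 4.41% of all genes tested, with a median log2 fold change of -4.19. None had an adjusted p under 0.05 (0 of 13, edgeR's quasi-likelihood test), and all 13 had an unadjusted p under 0.05. As a gene can pass the filter through the control libraries alone, the count was also taken over the 9 genes with at least 10 counts in every library, and all 9 were lower. The list was written with some of these differences known, so its direction is not independent evidence. Against control replicate 2 alone, 12 of 15 genes tested were lower and 0 higher, against 8.01% and 7.94% of all genes in that fit. CEACAM5, a relative of CEACAM6, had 146 and 38.5 CPM in control cells against 0.288 and 0.416 CPM in USP12 cells (log2 fold change -8.00, SE 0.94, adjusted p = 0.125 from the same test), and -6.74 against control replicate 2 alone. CEACAM6 had 2083 and 1312 CPM, then 24.1 and 24.9 CPM.

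The gel-forming mucins MUC5AC and MUC5B, chosen after their values were seen, went the other way from LCN2 between the control libraries. MUC5AC had 3755 CPM in control replicate 1 and 6984 CPM in control replicate 2, against 270.0 and 319 CPM in USP12 cells. MUC5B had 2265 and 5292 CPM, then 222 and 287 CPM. FCGBP, a mucus protein, and ST6GALNAC1, a sialyltransferase that acts on mucin O-glycans, were chosen in the same way. FCGBP had 360.3 and 188 CPM, then 20.4 and 19.2 CPM. ST6GALNAC1 had 41.5 and 47.0 CPM, then 1.80 and 1.18 CPM. In these 4 genes each USP12 library was lower than either control library, an order found in 17% of all genes tested.

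The transcription factors of secretory epithelia were less uniform. Of 27 listed genes, 24 were tested, 6 were lower by the criterion and 0 were higher, against 4.41% and 2.92% of all genes tested, and 0 had an adjusted p under 0.05 while 6 had an unadjusted p under 0.05. The median log2 fold change was -0.89. Each USP12 library was lower than either control library in 17 of the 24 genes, and higher in 2, against 17% and 19.5% of all genes tested. BHLHA15, or MIST1, a regulator of secretory cell architecture, had 8.78 and 8.37 CPM in control cells against 0.216 and 1.04 CPM in USP12 cells (log2 fold change -3.75, SE 0.84). EHF, an epithelial ETS factor, had 32.7 and 51.6 CPM, then 3.46 and 5.33 CPM (log2 fold change -3.26, SE 0.53). FOXA3 had 71.2 and 42 CPM, then 9.93 and 5.82 CPM (log2 fold change -2.84, SE 0.53). The adjusted p values of these 3 genes were 0.293, 0.182 and 0.210, from edgeR's quasi-likelihood test.

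The other 3 factors that met the criterion were SPDEF, XBP1 and SOX9, which like FOXA1 and FOXA2 were chosen after their values were seen. SPDEF, a regulator of goblet cells, had 224 and 122 CPM in control cells against 38.5 and 31.4 CPM in USP12 cells, a log2 fold change of -2.31 (SE 0.45). XBP1, a factor of the unfolded protein response, had 261 and 314 CPM, then 113 and 101 CPM, a log2 fold change of -1.43 (SE 0.34). For SOX9 it was -1.21 (SE 0.36). ELF3, the factor with the highest CPM of the list, did not meet the criterion. It had 699 and 416 CPM, then 309 and 331 CPM. Its log2 fold change was -0.80 (SE 0.38), and -0.38 against control replicate 2 alone. STAT6, which relays interleukin-13 signals, had a value of -0.32 (SE 0.33). FOXA1 and FOXA2, relatives of FOXA3, had values of -0.63 (SE 0.34) and 0.32 (SE 0.34), so that of the FOXA genes FOXA3 alone met the criterion, and the differences between them were not tested.

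**Figure D5:**
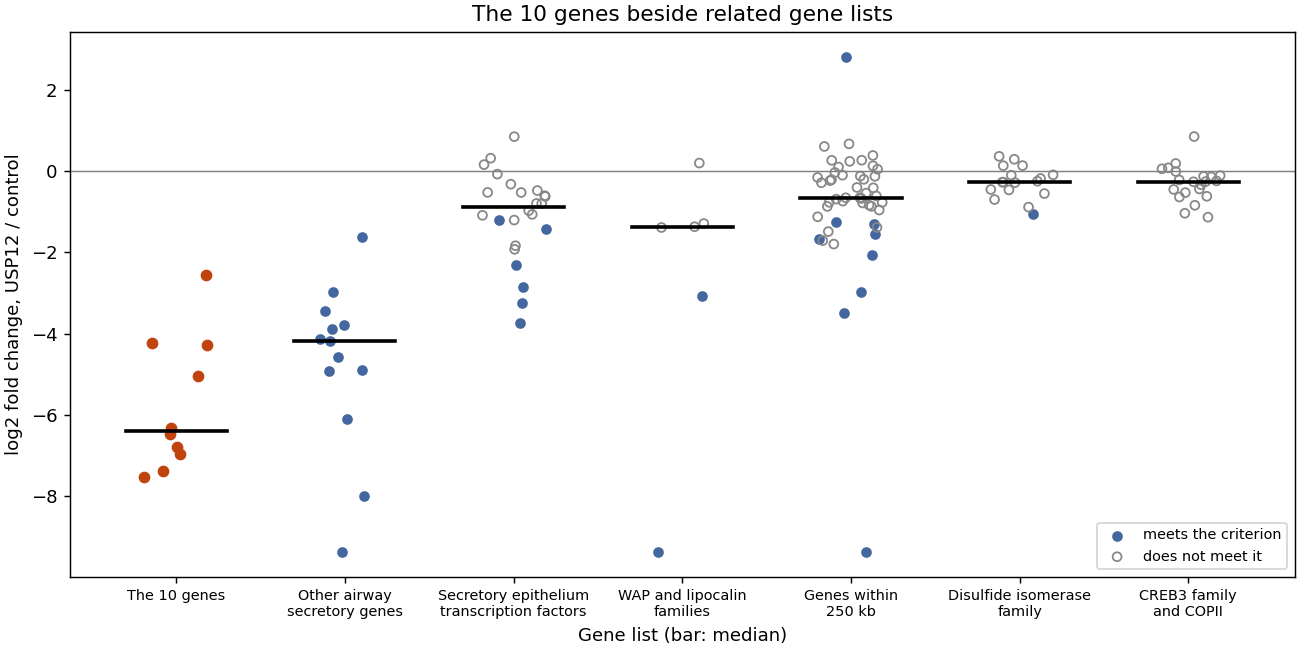
Log2 fold change (USP12 over control) of the 10 genes and of the tested genes of 6 related lists. Points are genes, filled blue where they meet the criterion (p before adjustment of at most 0.05, absolute log2 fold change of at least 1), and bars are medians, which run from -6.40 for the 10 genes and -4.19 for other airway secretory genes to -0.27 for the disulfide isomerase family and -0.26 for the CREB3 family and COPII list. Fitted values of genes with no counts in USP12 cells (AGR3, TFF3, PI3) depend on the prior count.

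Most genes around these loci did not meet the criterion, but they were lower by it more often than all genes tested. In the annotation, 124 genes of the tables start within 250 kb of the 10 genes, of which 48 were tested. Of these, 8 were lower and 1 higher by the criterion, against 4.41% and 2.92% of all genes tested, and 0 had an adjusted p under 0.05 while 9 had an unadjusted p under 0.05. Against control replicate 1 alone, 21 of 54 were lower and 5 higher (13.3% and 15.6% of all genes in that fit), and against control replicate 2 alone 10 of 49 and 2 (8.01% and 7.94%). Beside PI3, C1orf116 near PIGR had 45.1 and 21.9 CPM in control cells against 2.30 and 3.60 CPM in USP12 cells (log2 fold change -3.50, SE 0.60), and -2.88 against control replicate 2 alone. C4BPA, also near PIGR and encoding a complement inhibitor, had 64.7 and 82.2 CPM, then 10.3 and 8.31 CPM (log2 fold change -2.98, SE 0.43). PIGT near SLPI, a subunit of the GPI transamidase, had a log2 fold change of -0.69 (SE 0.39), and -0.25 against control replicate 2 alone. For the processed pseudogene ENSG00000244313 near CREB3L1 it was -0.74 (SE 0.57), with the direction turning from -1.31 against control replicate 1 alone to 0.32 against control replicate 2 alone. Near AGR2 and AGR3, chosen after their values were seen, the tetraspanin TSPAN13 met the criterion with -1.56 (SE 0.46), while BZW2 had -0.12 (SE 0.40) and AHR -0.61 (SE 0.55), which were 0.18 and 0.36 against control replicate 1 alone. The genes around a locus share their region and are not independent.

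Across the 7 promoter windows, no motif was common to all. The C/EBP motif (TTGCNNAA, either strand) was in PARM1, AGR2 and LCN2, and in 9.05% of 35091 windows of the same length. TATA-like matches (TATAAA or ATAAATA, gene strand only, which can overlap) were in AGR2, AGR3 and LCN2, and in 8.32% of all windows. The FOXA motif (any of TGTTTAC, or TGTTTGC, or TATTTAC, or else TATTTGC, on either strand) was in PARM1 and BPIFB1, and in 10.6% of all windows. The ETS motif (CAGGAAG, either strand) was in PIGR and BPIFB1, and in 10.5%. The κB consensus and the loose AP-1-like pattern (TGANTCA, any base at N), on either strand, were in LCN2 alone, and in 9.95% and 6.57% of all windows. The ACGTG core that CREB3 family factors can bind was in 0 of the 7 windows and in 18.5% of all. The CREB3L1 window held none of these matches. That window, chr11:46294909-46295158, lies inside the GENCODE gene, which starts at 46277662, and overlaps a CREB3L1 exon. The bases before the GENCODE start of CREB3L1 were not searched. A match is only a run of letters, and no match says only that these letters are not in this window.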

How the data were processed

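Messenger RNA of A549 cells was measured in 4 libraries. The authors prepared stranded libraries, trimmed adaptors and filtered rRNA with Seqtk, mapped reads to GRCh38 with Hisat2 2.0.4 and counted uniquely mapped fragments per gene with Stringtie 1.3.0. The deposited values are these raw counts. The annotation release and the strand setting of the counting are not given in the sources used here. From the counts, levels and fold changes were computed with edgeR 4.0.16 in R 4.3.3 (TMM, filterByExpr, quasi-likelihood test, Benjamini-Hochberg adjustment over 15222 genes). Standard errors are the fold change over the square root of F. The scripts were tested on simulated data. Positions and exon lengths came from GENCODE release 44, with 49659 of 50868 genes matched by identifier.

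The 10 genes and the gene lists were chosen with earlier results of these data known. Genes named from a list were at most 3 that met the criterion with the largest fold change and at most 2 others with the highest level, beside the 3 genes nearest to CREB3L1 in pattern, and names outside this rule are marked. Alternatives were DESeq2 1.42.0 size factors and Wald test, no filter, at least 10 counts in every sample, the edgeR exact test, the replicate block and leaving out each library.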

Additional observations from a re-analysis of the deposited data

How the results depend on the processing

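All 10 genes stayed lower in USP12 cells in each of the 95 values from 10 alternatives. This direction was set by the choice of the genes, as each had both USP12 libraries below both control libraries. It is therefore not evidence. Under a minimum of 10 counts in every sample, 5 of the genes were tested, all 5 met the criterion, and their median log2 fold change was -4.28, since AGR3, PIGR, TFF1, TFF3 and BPIFB1 were left out. Leaving out a library, 9 to 10 genes met it, TFF3 being lost without either USP12 library, and the median ran from -7.03 to -4.66. Genes of the 5 lists other than neighbours that met it numbered 21, and 16 to 33 when a library was left out. The count of all genes with an adjusted p under 0.05, 0 in the quasi-likelihood test (1155 at an unadjusted p under 0.05), was 528 without a filter, 406 with the DESeq2 Wald test, 429 by the edgeR exact test and 404 under the replicate block, and 40 to 5162 when a library was left out (1665 without control replicate 1 and 5162 without control replicate 2). Of the 10 genes, 9, 8, 10 and 9 passed that threshold in the first 4 of these fits. By the criterion, 671 genes were lower and 445 higher, against 1173 and 688 if no filter was used, 1275 and 1263 without control replicate 1, 2134 and 2495 without control replicate 2, 300 and 159 without USP12 replicate 1, and 337 and 165 without USP12 replicate 2. The cause was not tested. Where a single library was left in a group, the fit took its spread from the other group alone. Its counts of genes are therefore not comparable with those of the fits on all libraries. Samples with the same replicate number deviated together only weakly (correlation 0.152 across genes), and neither the labels nor this value show whether the numbers pair them, and the block gave a median of -6.0 for the 10 genes. At this depth, the counts of 0 in USP12 cells gave TFF3 and AGR3 only a lower limit.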

Other observations

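Of the listed airway secretory genes that were too low to be tested, some had most of their counts in control replicate 1, but others did not. BPIFA1, a relative of BPIFB1 that lies near it, had 91 and 2 counts in control cells against 0 in both USP12 libraries. TFF2 had 23 counts in control replicate 1 and 0 elsewhere, and the water channel AQP5 had 17 and 0, then 3 and 0 counts. BPIFB2 had 0 and 8 counts in control cells, then 0 and 1, and ERN2 had 6 and 15, then 0 and 3. DMBT1 had 8 and 7 counts, then 0 and 6, and MUC4 had 5 and 4, then 7 and 2. MUC20, a membrane mucin, had 2 and 3 counts in control cells against 19 and 7 in USP12 cells. The club cell genes SCGB1A1, SCGB3A1 and SCGB3A2 had at most 1 count in any library. These genes were chosen after their values were seen.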
